A study of Mus musculus with 7 samples.

Results

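Autophagy is the route by which a cell wraps its own contents in a double membrane, the autophagosome, and delivers them to the lysosome for breakdown. Kinases of the ULK complex start the process, a phosphatidylinositol 3-kinase complex marks the membrane, and lipid transfer proteins let it grow. Conjugation enzymes then attach the small ATG8 proteins (LC3 and GABARAP) to the membrane, where cargo receptors bind them. Skeletal muscle has a high autophagic flux, which rises in fasting and wasting and also clears damaged mitochondria. The RNA of 38 genes of this machinery is described here, taken by symbol from the 21487 rows of the table of counts. All 38 were found and all 38 passed the filter on low counts. By role they were 5 genes of the initiation kinase complex, 5 of the class III PI3-kinase complex, 5 of membrane supply, 10 of conjugation, 5 of the ATG8 family, 4 cargo receptors, 3 mitophagy receptors and the transcription factor gene Tfeb.

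The tissue was gastrocnemius, the fast calf muscle, of mice in which atrophy had been induced by immobilization. The knockout group (MPARK7KO, 4 libraries) lacked DJ-1, the product of Park7, in skeletal muscle, and the control group (3 libraries) consisted of flox mice, whose genotype the labels give as WT. Both groups were immobilized and no free limb was measured, so the comparison was knockout minus control under disuse. The sources used here name neither the driver of the deletion nor the age of the mice, and do not say whether each library is 1 animal. The p-values therefore measure the spread between these libraries, which may be technical.

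Library totals ran from 24458343 to 26389010 counts. Park7 fell to 0.152 times the control level (log2 fold change -2.71, SE 0.0918, adjusted p = 3.09e-06), with 229 to 266 CPM (counts scaled by library size) in the controls and 34.7 to 41.5 CPM in the knockouts. Fibre genes defined all libraries: the summed level of 8 of them (Acta1, Ckm, Mb, Ttn, Des, Tnnt3, Mylpf and Pvalb) was 70723 to 80188 CPM in the controls and 65058 to 81007 CPM in the knockouts. Of these 8 only Mb was called, with a log2 fold change of -2.17 and every knockout below every control. The groups differed in the RNA of cell and fibre type markers. Summed over 8 slow fibre genes, the level was 1814 to 2120 CPM in the controls and 713, 127, 76.3 and 722 CPM in knockouts 1 to 4, so knockouts 2 and 3 were poorest in slow fibre RNA. Of these slow fibre genes 3 were called lower (Myl2, Tpm3 and Atp2a2), and in all 8 every knockout lay below every control. Markers of other cells were also lower or overlapping: summed levels were 295 to 571 against 210 to 311 CPM for 6 fibroblast markers, 192 to 230 against 163 to 179 CPM for 5 endothelial markers, and 32.8 to 42.1 against 20.8 to 34.97 CPM for 8 macrophage markers. The genes called lower were 3 of the 6, 0 of the 5 and 2 of the 7 tested. Over all genes tested, 7.94% were called lower, and in 14.8% every knockout lay below every control. Of 5 pericyte and smooth muscle markers, 4 (Pdgfrb, Acta2, Myh11 and Cspg4) fell, each with every knockout below every control, by 0.37 to 0.71 on the log2 scale. Their sum with Rgs5, the most abundant of the 5, which overlapped, was 341 to 482 CPM in the controls and 315 to 382 CPM in the knockouts. Erythroid markers summed to 180 to 650 and 83.9 to 190 CPM (3 of 4 fell), and adipocyte markers to 7.13 to 15.6 and 4.98 to 10.6 CPM. Schwann cell markers stood at 166 CPM in control 1, at 38.3 to 48.6 CPM in the other controls and at 22.7 to 37.4 CPM in the knockouts. Satellite cell markers summed to at most 7.36 CPM, neutrophil markers to at most 1.03 CPM and lymphocyte markers to at most 0.155 CPM in any library. The part of these differences in the results was not tested. In whole muscle, fewer cells of a type and less RNA per cell cannot be told apart.

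Few genes of the autophagy machinery passed the test. Of the 38 genes, 2 rose in the knockout and 0 fell: the cargo receptor gene Optn and the lipid transfer gene Atg2b. That is 5.26% of the members, whereas 14.5% of the 13409 genes tested were called (6.56% higher and 7.94% lower), so the share of members called was below the background. At an unadjusted p under 0.05 there were 7 members (18.4%), 6 higher and 1 lower, against 31.6% of all genes. DESeq2 called the same 2 members. The knockout libraries lay wholly above the control libraries in 7 members, and wholly below in 0. The background for these counts is 14.0% of all genes above and 14.8% below.

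Changes were small in size. The log2 fold changes (knockout minus control) ran from -0.39 for Atg10 to 0.44 for Optn, and none reached 1.5-fold, a size passed by 15.3% of all genes. The fold change was above 0 for 31 members and below 0 for 7, with a median of 0.15, beside 50.7% above 0 and a median of 0.0057 over all genes. With upper quartile scaling 28 members were above 0 and their median was 0.096, while the median of all genes moved to -0.0434. The members were more abundant than most genes, with a median of 5.55 log2 CPM against 3.47, and their median SE was 0.0964 against 0.145 over all genes. For 35 of the 38 the 95% interval of the fold change lay wholly inside 1.5-fold in either direction (92.1%, against 50.6% of all genes), and the 3 exceptions were Optn, Atg10 and Gabarapl1.

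**Figure D1:**
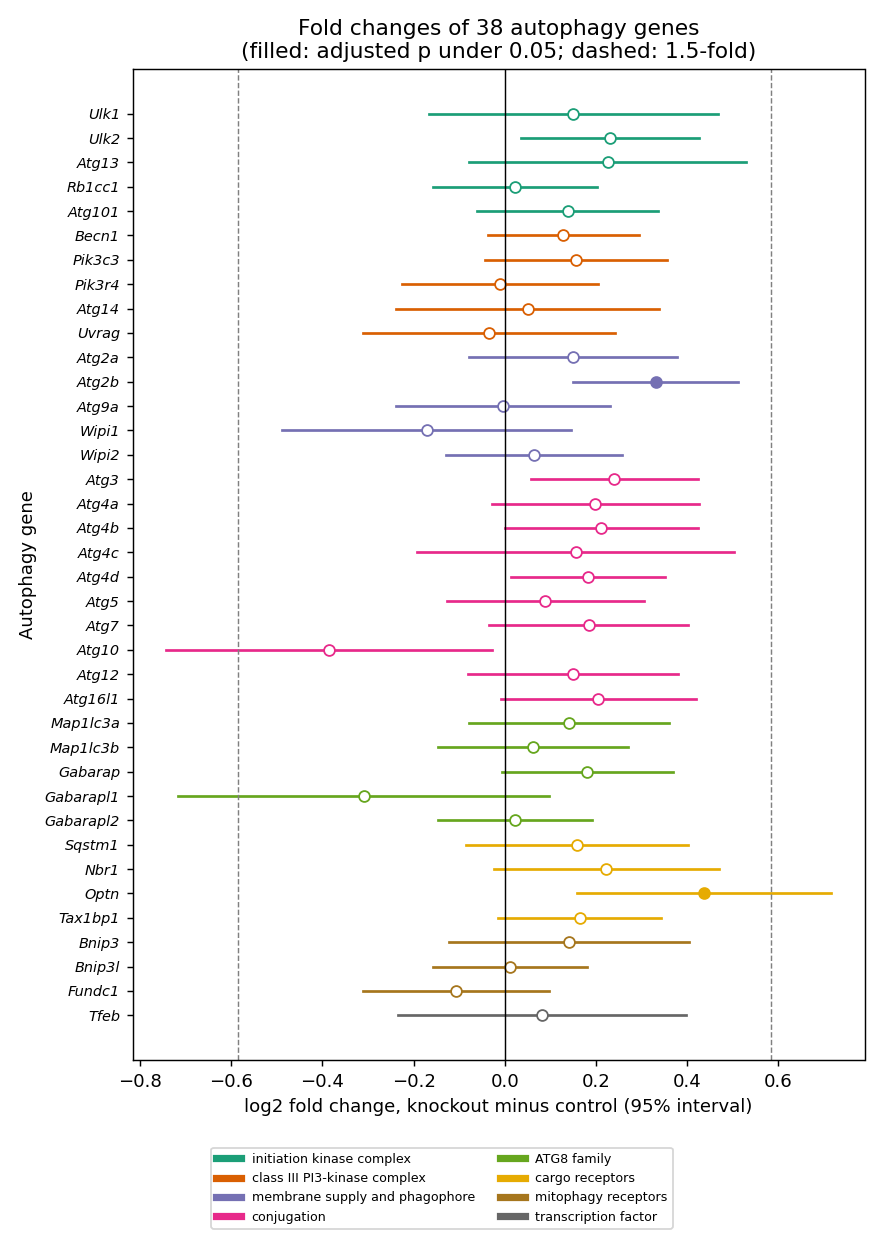
Log2 fold change (knockout minus control, horizontal axis) of each of the 38 autophagy genes with its 95% interval, coloured by role. Filled points mark Optn and Atg2b, which passed an adjusted p of 0.05, and the intervals of 35 genes lie between the dashed lines at 1.5-fold.

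**Figure D2:**
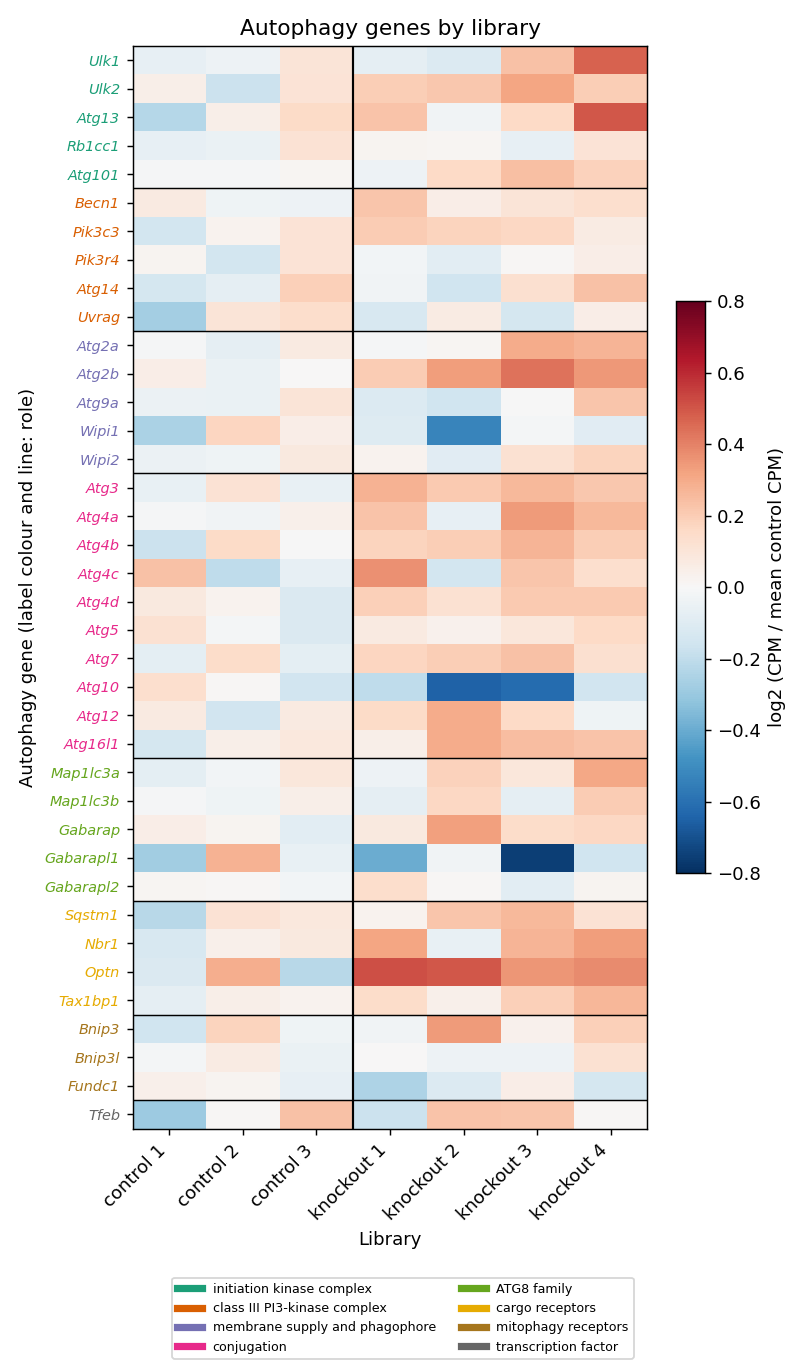
Level of each autophagy gene in each of the 7 libraries as the log2 ratio of its CPM to the mean of the 3 controls; lines and label colours separate the roles. Optn and Atg2b are above the control mean in every knockout, Atg10 is lowest in knockouts 2 and 3, and Gabarapl1 is lowest in knockout 3.

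The initiation complex receives the signals of nutrients and energy. It consists of a kinase, ULK1 or ULK2, with ATG13, the scaffold FIP200 (gene Rb1cc1) and ATG101. None of its 5 genes was called. Ulk2 read 121, 105 and 127 CPM in the controls and 135, 137, 147 and 135 CPM in the knockouts. The groups of Ulk2 did not overlap, yet the difference, 0.23 in log2 fold change (SE 0.0867), missed the threshold with an adjusted p of 0.106. Its sister kinase gene Ulk1 overlapped, with 83.1, 84.5 and 93.4 CPM against 82.9, 80.6, 102 and 121 CPM, where knockout 4 was highest. The ratio of Ulk1 to Ulk2 counts, which does not depend on scaling between libraries, was 0.684 to 0.807 in the controls and 0.591 to 0.894 in the knockouts (2-sided exact permutation p = 0.571, and 0.735 adjusted over 9 such pairs). Atg13, Atg101 and Rb1cc1 had log2 fold changes of 0.23, 0.14 and 0.022 (adjusted p = 0.285, 0.316 and 0.877). That of Rb1cc1 was -0.027 with upper quartile scaling.

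The class III PI3-kinase complex makes the lipid that recruits later factors. Its catalytic subunit is encoded by Pik3c3, with the regulatory kinase-like subunit gene Pik3r4 and Becn1 (beclin 1), while Atg14 and Uvrag encode alternative partners that send it to the autophagosome or to endosomes. None of the 5 genes was called, and the groups overlapped in each. Becn1 read 64.0, 59.3 and 59.3 CPM in the controls and 70.9, 63.1, 65.4 and 66.9 CPM in the knockouts. The log2 fold change was 0.13 (SE 0.0736) with an adjusted p of 0.266. Only knockout 2 lay within the range of the controls. Pik3c3 had 0.16 (adjusted p = 0.263), Atg14 0.05, Uvrag -0.03 and Pik3r4 -0.01 (adjusted p = 0.822 to 0.955). The counting is not stated to use strand, and in GENCODE M21 43.9% of the exonic length of Becn1 overlaps exons of Cntd1 on the other strand, so the level of Becn1 is uncertain.

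Of the genes that supply membrane to the growing autophagosome, Atg2b rose. ATG2A and ATG2B are long, bridge-like proteins that carry lipids to the membrane from the endoplasmic reticulum. Atg2b (ENSMUSG00000041341, GRCm38 chromosome 12, from 105616136 to 105685211, minus strand) read 31.0, 28.8 and 30.0 CPM in the controls and 34.5, 37.7, 40.4 and 38.1 CPM in the knockouts. Every knockout lay above every control. The control mean was 29.9 ± 1.11 CPM (SD, n = 3) and the knockout mean 37.7 ± 2.41 CPM (SD, n = 4). The log2 fold change was 0.33 (SE 0.0800), with an adjusted p of 0.0280 in edgeR's quasi-likelihood fit over all genes. With 1 library left out the fold change ran from 0.30 to 0.37. The call held only without knockout 1 or knockout 2, and ended without control 1 (adjusted p = 0.0742), control 2 (0.0833), control 3 (0.0868), knockout 3 (0.0749) or knockout 4 (0.0639). Without both knockouts 2 and 3 it was 0.28 (adjusted p = 0.117).

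Atg2a, the sister gene, read 30.8, 29.5 and 32.6 CPM in the controls and 30.7, 31.3, 38.1 and 37.4 CPM in the knockouts (log2 fold change 0.15, SE 0.101, adjusted p = 0.343). Its groups overlapped, with knockouts 1 and 2 among the controls. The ratio of Atg2a to Atg2b counts was 0.992, 1.02 and 1.09 in the controls and 0.890, 0.8295, 0.943 and 0.982 in the knockouts. It was lower in every knockout, a difference of -0.18 on the log2 scale (exact permutation p = 0.0571, and 0.257 adjusted over 9 pairs, where the smallest p that 35 splits allow is 0.0286). A single pair could therefore not go below 0.257 after adjustment, and at least 6 of the 9 pairs at the smallest p would have been needed to pass 0.05. Atg9a, which encodes the membrane-spanning scramblase that works with ATG2, had a log2 fold change of -0.0037 (adjusted p = 0.985), where 31.8% of its exonic length is shared with Gm29253 on the same strand. The phosphoinositide-binding genes Wipi1 and Wipi2 stood at -0.17 and 0.06 (adjusted p = 0.437 and 0.646), with Wipi1 lowest in knockout 2 (34.97 CPM against 42.2 to 56.7 CPM in the controls).

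The upstream 250 bases of Atg2b and of Optn, the only called members, are given as the sequence context of the genes that rose. They come from RefSeq (GRCm38.p6), where 31 of the 38 members had an entry. Atg2b lies on the minus strand at chr12:105685242-105685491 and Optn on the minus strand at chr2:5064118-5064367.
Atg2b: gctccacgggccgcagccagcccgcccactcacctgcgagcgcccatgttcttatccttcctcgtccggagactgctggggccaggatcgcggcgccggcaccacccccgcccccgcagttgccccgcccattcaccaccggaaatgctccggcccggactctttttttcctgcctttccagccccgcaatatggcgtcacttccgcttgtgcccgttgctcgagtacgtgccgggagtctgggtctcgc
Optn: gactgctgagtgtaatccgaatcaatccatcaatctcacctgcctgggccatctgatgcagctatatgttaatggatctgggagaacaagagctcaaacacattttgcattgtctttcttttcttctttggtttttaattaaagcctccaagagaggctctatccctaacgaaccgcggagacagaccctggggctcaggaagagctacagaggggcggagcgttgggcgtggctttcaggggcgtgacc
GC content was 67.6% for Atg2b and 50% for Optn. Windows of 300 bases around each start (250 before, 50 after) were searched on both strands for CACGTG, the E-box core of sites of TFEB, for GTAAACA, a core of FoxO sites, and for TGACTCA, the AP-1 site. None of these letter strings was in the window of Atg2b or Optn, so the sequences carry no capitals. CACGTG was in 5 of the 37 entries of the members (13.5%) and in 7.15% of all 32851 entries. GTAAACA and TGACTCA were in 0 of the 37 (3.65% and 5.2% of all entries).

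The 5 members with the E-box core were 4 genes of membrane marking and conjugation, Atg3, Atg5, Atg7 and Atg14, and the mitophagy receptor gene Bnip3. The stretches around the core are shown with the 6 matching bases in capitals, since this core is part of the sites that TFEB, the product of the member Tfeb, is known to bind.
Atg3 (chr16:45158718-45158780, plus strand): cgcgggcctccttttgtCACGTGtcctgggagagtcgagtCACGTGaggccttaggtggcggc
Atg5 (chr10:44268308-44268347, plus strand): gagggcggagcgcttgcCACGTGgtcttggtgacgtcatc
Atg7 (chr6:114670947-114670986, plus strand): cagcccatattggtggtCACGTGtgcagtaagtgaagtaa
Atg14 (chr14:47568413-47568452, minus strand): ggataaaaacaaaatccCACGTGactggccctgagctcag
Bnip3 (chr7:138909592-138909631, minus strand): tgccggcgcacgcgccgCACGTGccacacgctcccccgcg
Atg3 holds 2 matches and each of the others 1. The RefSeq start used for Atg7 lies 27999 bases inside the gene as GENCODE M21 draws it, and that for Atg14 2215 bases inside, so these are alternative starts; the other 3 lie within 44 bases of the gene's first base. The log2 fold changes of these genes were 0.24, 0.09, 0.18, 0.05 and 0.14, and none was called (adjusted p = 0.0792 for Atg3 and 0.229 to 0.822 for the others). Tfeb itself, the regulator of lysosome and autophagy genes, read 48.0, 59.0 and 69.0 CPM in the controls and 52.2, 68.8, 68.4 and 59.0 CPM in the knockouts (log2 fold change 0.08, SE 0.140, adjusted p = 0.726). The knockouts of Tfeb lay within the range of the controls. Its relative Mitf, outside the members, fell: the controls held 18.5 ± 1.15 CPM (SD, n = 3) and the knockouts 14.9 ± 0.438 CPM (SD, n = 4). Its log2 fold change was -0.31 (edgeR adjusted p = 0.0391), and with 1 library left out the call held only without knockout 2 (0.0413), the other values being 0.0570 to 0.135.

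None of the 10 conjugation genes was called. This system works like ubiquitination: ATG7 activates, ATG3 and ATG10 transfer, ATG12, ATG5 and ATG16L1 form the ligase, and the ATG4 proteases trim and release the ATG8 proteins. Of the 10 fold changes 9 were above 0, with a median of 0.18 on the log2 scale. In 3 of the 10 genes the groups did not overlap, beside 28.8% of all genes tested. The summed level of the 10 genes was 207, 208 and 202 CPM in the controls and 232, 222, 239 and 232 CPM in the knockouts, without overlap, which is a description since the genes share libraries and scaling. Atg3 read 18.2, 20.5 and 18.2 CPM in the controls and 22.96, 21.9, 22.7 and 22.0 CPM in the knockouts. Every knockout of Atg3 lay above the controls (log2 fold change 0.24, SE 0.0815, unadjusted p = 0.0159 and adjusted p = 0.0792 by edgeR).

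Among the proteases, Atg4b read 17.4, 21.9 and 19.6 CPM in the controls and 22.3, 22.5, 23.8 and 22.5 CPM in the knockouts (log2 fold change 0.21, adjusted p = 0.158). Atg4d read 49.9, 48.1 and 43.7 CPM against 53.8, 51.4, 54.7 and 54.5 CPM (0.18, adjusted p = 0.132). Neither overlapped between groups. Atg4a had 37.9, 37.4 and 39.3 CPM against 44.7, 36.5, 48.3 and 45.8 CPM (0.20, adjusted p = 0.210), with knockout 2 alone below the controls, and was called without that library (adjusted p = 0.0392). Differences in the proportions of the proteases were not detectable: the ratio of Atg4a to Atg4b was 1.71 to 2.17 in the controls and 1.62 to 2.04 in the knockouts, and that of Atg4d to Atg4b was 2.20 to 2.86 and 2.28 to 2.43 (differences of -0.03 each on the log2 scale, exact permutation p = 0.8286 and 0.914, each 0.914 adjusted). Atg4d has reads shared with other genes, and 19.3% of its exonic length overlaps Kri1 on the other strand.

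Atg10, which encodes the transfer enzyme for ATG12, was the 1 conjugation gene with a fold change below 0. It read 8.48, 7.78 and 6.95 CPM in the controls and 6.71, 4.95, 5.06 and 6.97 CPM in the knockouts. Knockouts 2 and 3 were lowest and knockout 4 reached the lowest control (log2 fold change -0.39, SE 0.159, unadjusted p = 0.0377, adjusted p = 0.134 by edgeR). The same 2 libraries were poorest in slow fibre RNA, and a link between the 2 was not tested. Without both of them the log2 fold change of Atg10 was -0.18 (edgeR adjusted p = 0.470). The remaining genes were Atg16l1 with 0.21 (adjusted p = 0.174), Atg7 with 0.18, Atg12 with 0.15, Atg4c with 0.16 and Atg5 with 0.09 (adjusted p = 0.229 to 0.559).

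None of the 5 ATG8 genes was called, and 4 of the 5 fold changes were above 0. These small ubiquitin-like proteins coat the autophagosome, and LC3B is the usual marker of autophagosomes. Map1lc3a read 113, 117 and 126 CPM in the controls and 115, 135, 126 and 147 CPM in the knockouts (log2 fold change 0.14, SE 0.0969, adjusted p = 0.351). Map1lc3b read 166, 163 and 173 CPM against 159, 187, 159 and 192 CPM (0.06, SE 0.0927, adjusted p = 0.681). For Map1lc3a, knockouts 1 and 3 lay within the range of the controls and knockouts 2 and 4 above it. For Map1lc3b the knockouts straddled the controls, with knockouts 1 and 3 below and knockouts 2 and 4 above. The interval of the Map1lc3b change runs from 0.903-fold to 1.21-fold.

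Gabarap read 80.6, 79.0 and 73.2 CPM in the controls and 81.8, 97.3, 86.0 and 87.0 CPM in the knockouts (0.18, SE 0.0828, adjusted p = 0.169). The groups of Gabarap did not overlap, by a narrow gap between control 1 and knockout 1. Gabarapl2 (GATE-16) stood at 75.5, 75.2 and 73.8 CPM against 82.4, 75.2, 70.6 and 76.0 CPM (0.024, SE 0.0748, adjusted p = 0.859), and this value was -0.025 with upper quartile scaling. Gabarapl1, which FoxO3 is known to induce in wasting muscle, was the only ATG8 gene below 0, with 43.1, 63.3 and 50.03 CPM against 39.5, 51.2, 31.0 and 46.6 CPM. Knockout 3 was lowest, and Gabarapl1 varied most between controls of all 38 genes, by a coefficient of variation of 19.7% (log2 fold change -0.31, SE 0.180, adjusted p = 0.275). Of its exonic length, 28.3% overlaps 1700101I11Rik on the other strand.

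Within libraries, the ratio of Gabarapl1 to Gabarap counts was 0.534, 0.802 and 0.683 in the controls and 0.483, 0.526, 0.360 and 0.536 in the knockouts. Only knockout 4 reached the lowest control (difference -0.50 on the log2 scale, exact permutation p = 0.0571, and 0.257 adjusted over 9 pairs). The ratio of Gabarapl1 to Gabarapl2 was 0.570 to 0.842 and 0.439 to 0.681 (difference -0.34, exact permutation p = 0.257, adjusted 0.463), and that of Map1lc3a to Map1lc3b was 0.679 to 0.733 and 0.718 to 0.793 (0.08, exact permutation p = 0.229, adjusted 0.463). Per kilobase of exonic length in GENCODE M21, the level in the controls was 100.5 ± 5.99 CPM for Map1lc3a, 42.1 ± 2.10 for Gabarap, 32.2 ± 0.407 for Gabarapl2, 25.9 ± 5.12 for Gabarapl1 and 22.2 ± 0.649 for Map1lc3b (SD, n = 3). Map1lc3a led by far, while the neighbours Gabarapl1 and Map1lc3b did not differ beyond the spread of Gabarapl1. These lengths join all annotated exons of a gene, used or not.

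**Figure D3:**
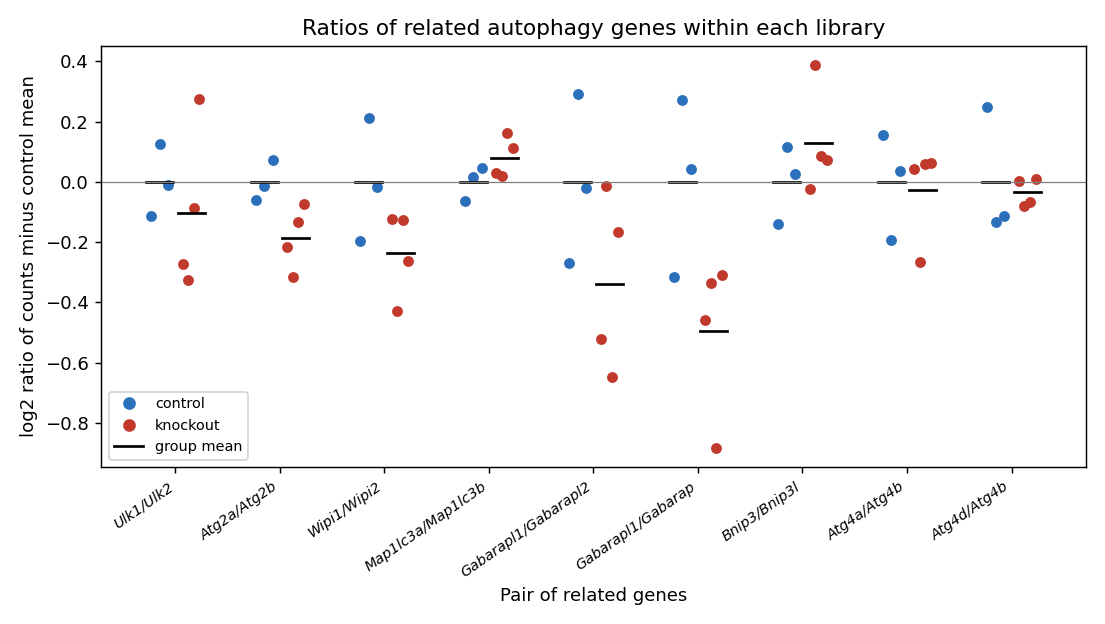
Log2 ratio of the counts of 2 related genes within each library, minus the mean of the controls (vertical axis), for 9 pairs; blue points are the 3 controls, red points the 4 knockouts and bars the group means. The ratio of Atg2a to Atg2b is lower in every knockout, that of Gabarapl1 to Gabarap is lower on average, and with 35 splits no single pair could pass after adjustment over 9 pairs.

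All 4 cargo receptors had fold changes above 0, and Optn rose. Receptors of this kind bind ubiquitinated cargo on one side and ATG8 proteins on the other, and optineurin (Optn) also takes part in the removal of damaged mitochondria. Optn (ENSMUSG00000026672, GRCm38 chromosome 2, from 5020642 to 5064051, minus strand) read 87.1, 116 and 81.0 CPM in the controls and 135, 134, 121 and 123 CPM in the knockouts. The groups did not overlap, though control 2 came close to the lowest knockout. The control mean was 94.5 ± 18.4 CPM (SD, n = 3) and the knockout mean 128 ± 7.38 CPM (SD, n = 4). The log2 fold change was 0.44 (SE 0.124, edgeR adjusted p of 0.0456), with an interval from 1.12-fold to 1.64-fold.

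The call of Optn depended on the libraries. Without control 2 the log2 fold change was 0.61 (adjusted p = 0.0185). Without any other single library the call ended: the adjusted p was 0.158 and 0.154 without control 1 and control 3, and 0.0849, 0.0693, 0.0774 and 0.0762 without knockouts 1 to 4. Upper quartile scaling also ended it (0.0638). The fold change ranged from 0.34 to 0.61 with 1 library left out and was 0.45 (adjusted p = 0.120) without both knockouts 2 and 3.

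Sqstm1 (p62), the receptor that itself is degraded by autophagy, was the most abundant member per kilobase, with 171 ± 21.4 CPM in the controls (SD, n = 3). It read 491, 621 and 609 CPM in the controls and 585, 670, 686 and 622 CPM in the knockouts (log2 fold change 0.16, SE 0.108, adjusted p = 0.345). The groups overlapped, and control 1 was lowest. Exons of Mrnip on the other strand overlap 17.3% of its exonic length. Nbr1, a receptor for protein aggregates and peroxisomes, read 107, 121 and 124 CPM against 146, 112, 141 and 147 CPM (0.22, SE 0.110, adjusted p = 0.199). Knockout 2 alone lay among the controls, and without it Nbr1 was called with 0.31 (adjusted p = 0.0419). Tax1bp1 read 96.7, 105 and 104 CPM against 113, 105, 116 and 123 CPM (0.16, SE 0.0794, adjusted p = 0.191), again with knockout 2 alone within the controls.

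The mitophagy receptors, proteins of the outer mitochondrial membrane that bind ATG8 proteins directly, did not pass. Bnip3, induced by FoxO3 and by low oxygen, read 202, 256 and 221 CPM in the controls and 222, 286, 232 and 258 CPM in the knockouts (log2 fold change 0.14, SE 0.116, adjusted p = 0.440). Bnip3l (NIX) read 58.4, 61.8 and 56.8 CPM against 59.0, 57.3, 57.3 and 64.2 CPM (0.012, SE 0.0748, adjusted p = 0.934, and -0.037 with upper quartile scaling). Fundc1, the receptor of hypoxic mitophagy, read 24.1, 23.7 and 22.4 CPM against 19.7, 21.7, 24.2 and 21.2 CPM (-0.11, SE 0.0902, adjusted p = 0.452). The groups overlapped in all 3 genes. An antisense gene, Gm45507, overlaps 22.3% of the exonic length of Bnip3. The interval of Bnip3l runs from 0.897-fold to 1.13-fold. The ratio of Bnip3 to Bnip3l counts was 3.47 to 4.14 in the controls and 3.76 to 4.998 in the knockouts (difference 0.13 on the log2 scale, exact permutation p = 0.429, adjusted 0.643).

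**Figure D4:**
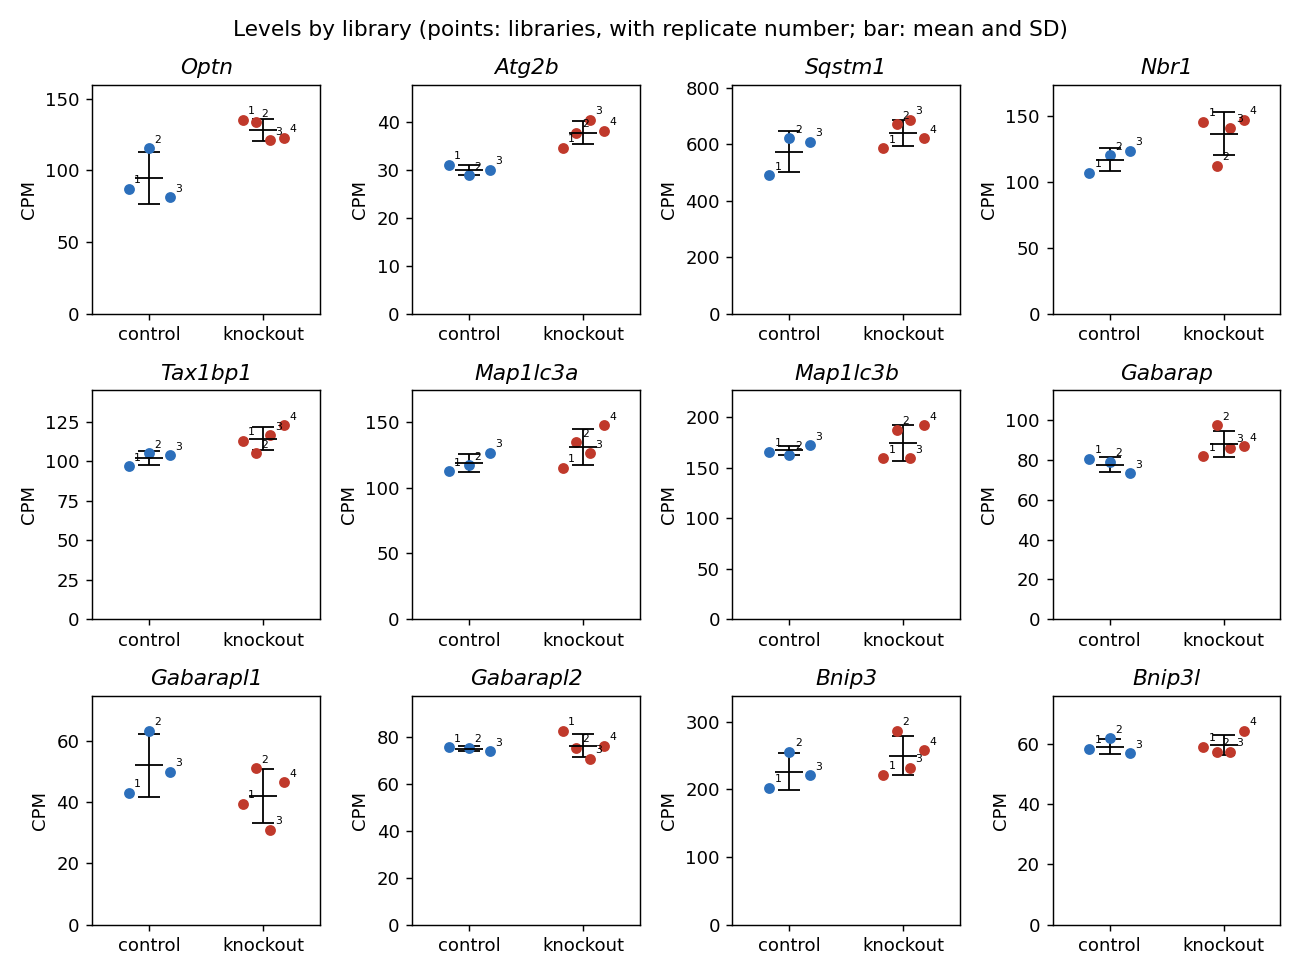
Level in CPM (vertical axis, from 0) of Atg2b, the 4 cargo receptors, the 5 ATG8 genes, Bnip3 and Bnip3l; points are libraries with their replicate number and bars the mean and SD. Optn and Atg2b are higher in every knockout, Gabarap by a narrow gap, and the other genes overlap between the groups.

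Outside the members, calls were also found among genes that fuse the autophagosome with the lysosome. Of 14 such genes 3 rose and 1 fell (28.6%, against 14.5% of all genes). Their median log2 fold change was 0.19, beside 0.0057 over all genes. Without a filter on low counts 2 rose (Stx17 and Snap29) and 0 fell, as Plekhm1 had an adjusted p of 0.0524 and Vamp8 of 0.0951. With the replicate number added to the fit 0 rose and 0 fell. Stx17, the SNARE of the closed autophagosome, read 33.5, 34.9 and 33.2 CPM in the controls and 42.8, 40.6, 42.7 and 41.2 CPM in the knockouts (log2 fold change 0.30, SE 0.0684, adjusted p = 0.0225). Its SNARE partner gene Snap29 read 28.8, 27.4 and 27.9 CPM against 36.9, 33.4, 37.6 and 34.5 CPM (0.35, SE 0.0767, adjusted p = 0.0214). Plekhm1, an adaptor that tethers the lysosome, rose by 0.32 (adjusted p = 0.0334). The lysosomal SNARE gene Vamp8, the third of the complex, fell: the controls held 22.0 ± 0.610 CPM (SD, n = 3) and the knockouts 18.2 ± 0.291 CPM (SD, n = 4). Its log2 fold change was -0.27, with an adjusted p of 0.0392. The groups of these 4 genes did not overlap. With 1 library left out the number called by edgeR fell to 0 without control 1, control 3 or knockout 3, when 6, 8 and 6 of the genes had an unadjusted p under 0.05. It was 1 without control 2, 2 without knockout 1 or knockout 4, and 4 without knockout 2. No gene of the list was called by edgeR without both knockouts 2 and 3, where 7 of them had an unadjusted p under 0.05. For the fits with libraries left out, the share of all genes under that threshold is not given, so these counts only describe.

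Of 18 lysosome genes 2 rose and 1 fell (16.7%, near the 14.5% of all genes), with a median log2 fold change of 0.11. Npc1, the cholesterol exporter of the lysosome, read 67.1, 75.8 and 69.9 CPM in the controls and 126, 233, 174 and 136 CPM in the knockouts, 2.36-fold higher on average (log2 fold change 1.24, SE 0.199, adjusted p = 0.00760). Every knockout was far above the controls. Its reads are partly shared with other genes, and the gene was called without each single library (adjusted p = 0.00379 to 0.0337). Gaa, the enzyme that breaks down glycogen in the lysosome, rose by 0.67 (adjusted p = 0.0334), with 191, 198 and 237 CPM against 243, 398, 385 and 302 CPM. The call of Gaa held only without knockout 1, and without both knockouts 2 and 3 the fold change was 0.39 (adjusted p = 0.125). The protease gene Ctsb, with reads shared with other genes, fell, with a log2 fold change of -0.58 (edgeR adjusted p = 0.00739), and was called without each single library.

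Of 26 further regulators and receptors tested, 0 rose and 2 fell (7.69%, below the 14.5% of all genes), with a median log2 fold change of 0.10. The 2 were Mitf and Ccpg1, a receptor gene for autophagy of the endoplasmic reticulum whose reads are partly shared. Ccpg1 had 106, 104 and 107 CPM in the controls and 84.0, 92.4, 87.2 and 89.8 CPM in the knockouts (-0.26, adjusted p = 0.0374), and with 1 library left out its call held only without knockout 2 (0.0348, otherwise 0.0605 to 0.119). Without a filter on low counts neither was called (adjusted p = 0.0779 for Mitf and 0.0869 for Ccpg1). At an unadjusted p under 0.05 there were 6 higher and 2 lower in that list, 30.8% against 31.6% of all genes. DESeq2 called 2 higher (Foxo1 and Vmp1) and 2 lower. Among them, Foxo1 and Foxo3, factors that drive several autophagy genes in wasting muscle, had log2 fold changes of 0.72 and 0.30 (adjusted p = 0.116 and 0.140).

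**Figure D5:**
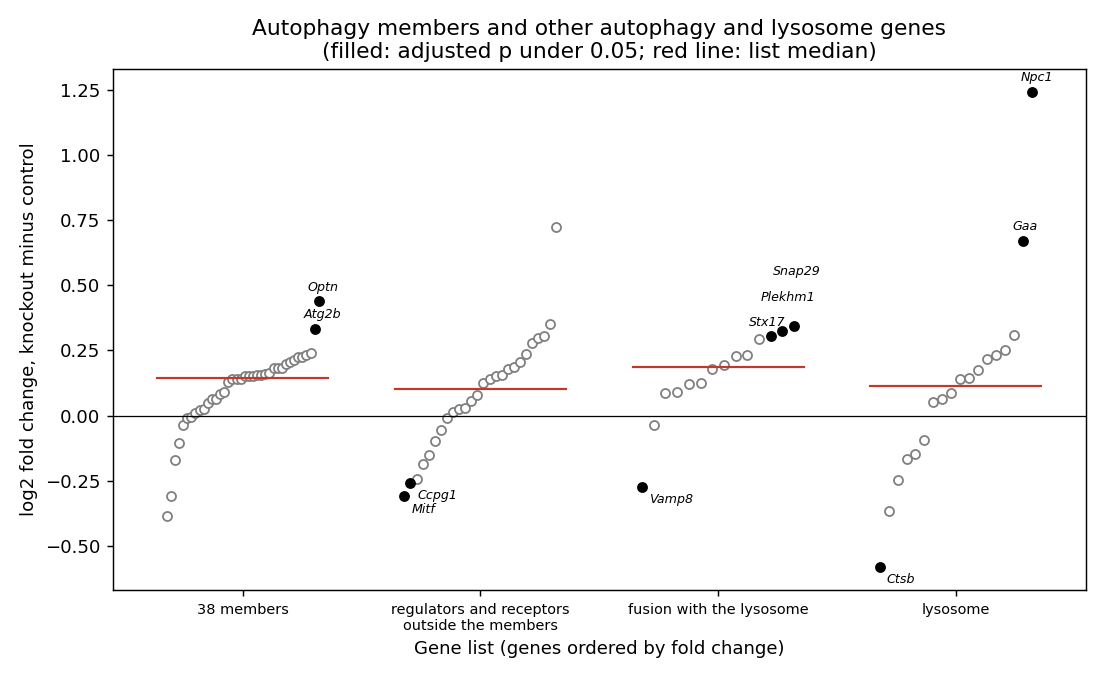
Log2 fold change (knockout minus control, vertical axis) of the 38 members and of 3 lists of other autophagy and lysosome genes, ordered within each list; filled points passed an adjusted p of 0.05 and red lines are list medians. Npc1 at 1.24 stands above all other genes drawn, and the 2 called members are Optn and Atg2b.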

How the data were processed

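RNA was measured in 7 gastrocnemius libraries, 3 control and 4 knockout, grouped by their titles. Per the submitters' processing notes, reads were aligned to mm10 with STAR 2.7.10a, quantified with RSEM 1.2.28 and tested with DESeq2 (given as 1.3.40). The authors deposited RSEM expected counts (estimated counts per gene symbol), which were rounded. Where RSEM split reads among genes the value has decimals, as in the members Atg4d, Becn1, Bnip3l and Rb1cc1 (4 of 38). Annotation and strand setting are not stated in the sources used here.

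The comparison was fitted with edgeR 4.0.16 under R 4.3.3 (filterByExpr, TMM, quasi-likelihood F test), with Benjamini-Hochberg adjustment over all 13409 tested genes and a call at an adjusted p under 0.05. Each SE was derived from the log2 fold change and its F statistic, and intervals are 95%. CPM used TMM library sizes. Library totals of 24458343 to 26389010 counts limit precision mainly for low genes. Replicates of a group differed by more than sampling noise (chi-square of 27.6 to 66.1 per degree of freedom). The test was checked on simulated data. For ratios of related genes an exact permutation test (2-sided) used all 35 ways to split the libraries. Alternatives were scaling by RLE or upper quartile, a minimum mean count of 10 or no filter, a robust prior, DESeq2 1.42.0, a replicate term, a 1.5-fold threshold and leaving out each library; leaving out knockouts 2 and 3 together was chosen after seeing the data, as were the alternatives for the genes outside the members. All members were accounted for, and values are given in every library for called members, for members with non-overlapping groups and an unadjusted p under 0.05, for the ATG8 family and for the receptors. Outside the members the called genes of each list were named, at most 6 by smallest p. The values of Ulk1, Atg2a, Atg4a, Becn1, Atg10 and Tfeb by library, and the values of Foxo1 and Foxo3, were added after they were seen. Members, lists and markers were chosen with earlier results of these data known. Positions, exonic lengths and overlaps are from GENCODE M21 (GRCm38), which held all 38 members by symbol.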

Additional observations from a re-analysis of the deposited data

Results flagged for a closer look

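In knockouts of 4 libraries, 38 genes and 9 ratios were searched for a single library far from the others, and chance alone marks about 1 in 20 such groups. Ulk2 was highest in knockout 3, at 147 CPM against 135 to 137 CPM in the other knockouts, a gap that took 0.856 of the whole range. Atg4b was also highest in knockout 3, at 23.8 CPM against 22.3 to 22.5 CPM (0.832 of the range). The ratio of Atg4a to Atg4b counts was lowest in knockout 2, at 1.62 against 2.01 to 2.04 (0.936 of the range).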

How the results depend on the processing

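Genes called over the whole table numbered 1944, and 980 with a 1.5-fold threshold added, 1224 with the replicate block and 836 without both knockouts 2 and 3. With 1 library left out, in fits with fewer samples, it ran from 775 without control 3 to 2025 without knockout 2, and was 801 without control 1, 988 without control 2, 937 without knockout 3 and 1243 without knockout 4. The share of calls that were higher was 45.2%, and 33.5% with upper quartile scaling. Autophagy genes called were 2, and 1 with upper quartile scaling (Atg2b), 1 with the replicate block (Optn, as Atg2b had an adjusted p of 0.0858), 0 without both knockouts 2 and 3 and 0 with the 1.5-fold threshold. With 1 library left out they ran from 0 to 3. They were 0 without control 1, control 3, knockout 3 or knockout 4, when 4, 4, 3 and 5 members had an unadjusted p under 0.05. The share of all genes under that threshold in these smaller fits is not given, so the counts have no background beside them. Other autophagy and lysosome genes called were 9, and 5 without a filter, 5 with the replicate block (Npc1, Gaa, Foxo1 and Rubcn higher, Ctsb lower, so no fusion gene, and neither Mitf nor Ccpg1, with adjusted p of 0.121 and 0.0984), 2 with the 1.5-fold threshold, 2 without both knockouts 2 and 3, and 2 to 9 with 1 library left out. Same-numbered libraries deviated together weakly (correlations of 0.0945, 0.134 and 0.0854), yet each library of numbers 1 to 3 correlated best with its own number. For control 3 the margin was narrow, with 0.0854 for knockout 3 and 0.0809 for knockout 4. Whether the numbers mark a shared batch was not tested. The main fit left the number out, and the replicate block above took it in.

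Fold changes near 0 changed sign. With upper quartile scaling these were Rb1cc1 (-0.027), Gabarapl2 (-0.025) and Bnip3l (-0.037), and with the replicate block Rb1cc1 (-0.0065), Atg14 (-0.013) and Bnip3l (-0.027). Atg9a was 0.0025 without a filter, 0.0042 with DESeq2 and 0.071 without both knockouts 2 and 3, where Pik3r4 was 0.020 and Tfeb -0.076. With 1 library left out the ranges were -0.018 to 0.085 for Rb1cc1, -0.076 to 0.051 for Pik3r4, -0.023 to 0.16 for Atg14, -0.16 to 0.040 for Uvrag, -0.088 to 0.050 for Atg9a, -0.021 to 0.058 for Gabarapl2, -0.027 to 0.048 for Bnip3l and -0.051 to 0.21 for Tfeb. The log2 ratio differences ran from -0.12 to 0.054 for Atg4a to Atg4b and from -0.10 to 0.090 for Atg4d to Atg4b. The cause was not tested. Optn and Atg2b were above 0 under every alternative run.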
